A study of Mus musculus with 7 samples.

Results

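The stronger distal regions of open chromatin that were called in Dll1+ mammary tumour cells and not in Dll1− tumour cells numbered 1630, of 119215 regions in all. They were chosen by 3 criteria. A region had to hold peak rows from the Dll1+ list and none from the Dll1− list, at least 1 of its rows had to have a fold enrichment above the Dll1+ list's median of 5.59, and its midpoint had to lie more than 1000 bp from every protein-coding transcription start site (TSS). The fold enrichment, the ratio of reads at the summit of a peak to the local background, and the absence of a Dll1− row were thus selected on, and they are described here without a test. Chromatin accessibility was measured by ATAC-seq, in which a transposase inserts sequencing adapters into DNA that is not packed in nucleosomes. The cells came from mammary tumours of mice with the MMTV-PyMT transgene, which drives the polyoma middle T oncoprotein from a mammary tumour virus promoter, and with a Dll1-mCherry reporter on a bacterial artificial chromosome, which marks cells that express the Notch ligand gene Dll1. The mice were on the C57BL/6 background per the study's methods, and their age is not given in the sources used here. Both populations carried both transgenes and had been depleted of CD45, CD31 and Ter119 positive cells, the markers of blood, endothelial and red blood cells. The mCherry-positive (Dll1+) cells gave 3 samples and the mCherry-negative (Dll1−) cells gave 4, from 4 tumours of which 3 gave both. Each deposited list pooled the samples of its group, and none of the differences given has a replicate error. The intervals given are 95% Wilson intervals, which cover counting error only, and regions are not replicates of a condition.

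Distal open regions are where most enhancers lie, and sequence-specific transcription factors bind short motifs in them. AP-1, the dimer of Fos and Jun proteins, opens enhancers in many cell types in response to growth and stress signals. Forkhead (FOX) and nuclear factor I (NFI) proteins bind enhancers of luminal mammary cells, TEAD proteins carry the transcriptional output of the Hippo pathway, and SOX and RUNX proteins act in progenitor cells of many epithelia. CTCF binds the boundaries and loop anchors of chromatin in most cell types.

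The summit windows of 7 regions show the consensus letters that the results turn on, with 1 window from a region called only in Dll1− cells for contrast. Each reaches 100 bp to either side of the strongest summit on the forward strand of GRCm38 (mm10), from RefSeq, and capitals mark the consensus named: FOX is TGTTTAC or TATTTAC, NFI, as the single-sided site, is TTGGCA, TEAD is GGAATG, SOX is ACAAAGG or ACAATGG, and AP-1 is TGACTCA or TGAGTCA, each on either strand. A region is named after the protein-coding gene whose TSS is nearest. The windows were taken from among the strongest regions with a match. A match is a description of letters and not a bound site.
Chek1 region, FOX, chr9:36739594-36739794: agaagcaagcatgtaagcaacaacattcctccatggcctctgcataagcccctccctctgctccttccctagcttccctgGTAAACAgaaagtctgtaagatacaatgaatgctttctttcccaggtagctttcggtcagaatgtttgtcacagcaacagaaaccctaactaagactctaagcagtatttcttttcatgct
Far2 region, FOX, chr6:147825469-147825669: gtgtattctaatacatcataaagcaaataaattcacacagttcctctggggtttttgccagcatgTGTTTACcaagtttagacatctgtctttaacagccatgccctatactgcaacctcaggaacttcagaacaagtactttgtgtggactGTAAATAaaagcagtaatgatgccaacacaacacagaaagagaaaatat
Pkib region, NFI, chr10:57600797-57600997: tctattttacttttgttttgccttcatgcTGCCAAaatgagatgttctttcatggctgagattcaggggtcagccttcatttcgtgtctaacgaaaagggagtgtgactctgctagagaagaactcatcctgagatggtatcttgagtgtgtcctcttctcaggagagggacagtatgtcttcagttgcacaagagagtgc
Dcdc2c region, TEAD, chr12:28401979-28402179: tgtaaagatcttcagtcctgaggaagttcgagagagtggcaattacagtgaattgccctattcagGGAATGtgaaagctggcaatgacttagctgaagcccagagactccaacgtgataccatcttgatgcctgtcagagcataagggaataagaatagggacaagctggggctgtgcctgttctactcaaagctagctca
Sox4 region, SOX, chr13:29040468-29040668: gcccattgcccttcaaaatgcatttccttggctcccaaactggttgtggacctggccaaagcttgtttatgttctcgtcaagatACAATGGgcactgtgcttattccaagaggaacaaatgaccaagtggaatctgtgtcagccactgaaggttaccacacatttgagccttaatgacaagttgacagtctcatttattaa
Marcks region, AP-1, chr10:37155212-37155412: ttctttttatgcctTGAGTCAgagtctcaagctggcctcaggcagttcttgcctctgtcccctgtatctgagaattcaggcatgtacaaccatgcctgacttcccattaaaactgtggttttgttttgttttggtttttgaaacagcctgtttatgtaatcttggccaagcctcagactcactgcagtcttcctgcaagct
Tor3a region, AP-1, called only in Dll1− cells, chr1:156667535-156667735: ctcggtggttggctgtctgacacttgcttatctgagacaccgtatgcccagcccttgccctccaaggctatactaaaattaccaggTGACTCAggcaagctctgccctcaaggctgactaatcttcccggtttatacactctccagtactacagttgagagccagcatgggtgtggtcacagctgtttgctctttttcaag

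The Chek1 region, in an intron of Stt3a, which encodes an oligosaccharyltransferase subunit, carried FOX letters that began 20 bp before the summit, and the Far2 region, between genes, carried 2 matches, on either side of it. In the Marcks region, among the strongest of the set with an AP-1 match, the letters began 86 bp from the summit, near the window's edge. In the Tor3a region, among the strongest of those called only in Dll1− cells with an AP-1 match, they began 14 bp from it.

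The regions made up 1.59% of the 102822 distal regions of both lists. The reverse set, distal regions with rows from the Dll1− list only and a fold above that list's median of 5.00, held 5935 regions or 5.77%. In the text below these are the stronger Dll1+ only and stronger Dll1− only regions. They are set beside 8597 weaker Dll1+ only distal regions, at or under the threshold, and beside 10497 shared distal regions whose Dll1+ fold lay between 5.91 and 7.39, the middle range of the Dll1+ only regions, and which were therefore about as open in Dll1+ cells.

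The Dll1+ only regions were of moderate strength. Their fold had a median of 6.54 and a highest value of 15.7, and 67 of 1630 were above 10. They fell short of the strongest peaks of Dll1+ cells: 110 reached the upper quartile of all Dll1+ rows, 9.10, and 1 reached the strongest decile, 13.7. Their median width was 367.5 bp, against 487 bp in the shared regions of similar fold, 337 bp in the stronger Dll1− only and 292 bp in the weaker Dll1+ only regions. A shared region spans rows of both lists, so its width is not measured like that of the others. The stronger Dll1+ only regions held 1 row in 1395 cases (85.6%), and 72.1% of all shared distal regions held 1 Dll1+ row. At the edge of the threshold, the weakest region inside it, nearest to the otolith protein gene Otol1, had a fold of 5.591 from 30 reads, and the strongest outside it, nearest to 1700012P22Rik, had 5.589 from 45 reads on a higher local background. At the edge of the distance rule, the region near the axon guidance receptor gene Robo3 was kept at 1044 bp, and that near the phosphodiesterase gene Pde4b was left out at 853 bp with a fold of 6.51.

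**Figure D1:**
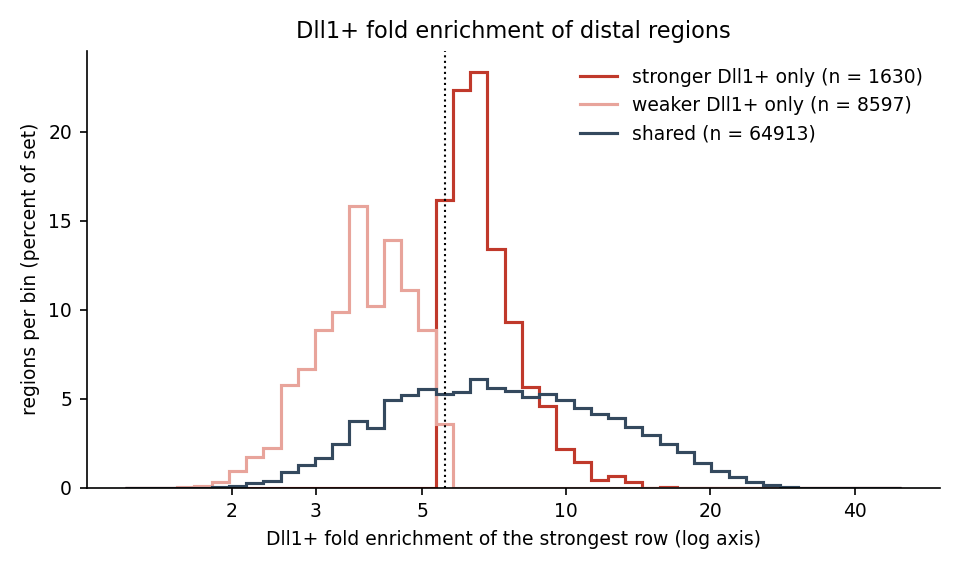
Distribution of the Dll1+ fold enrichment (x axis, log scale) of distal regions, as the percent of each set per bin (y axis), for the 1630 stronger Dll1+ only regions, the 8597 weaker ones and the 64913 shared regions; the dotted line is the threshold of 5.59, which lies inside a bin. The stronger Dll1+ only regions crowd just above the threshold, with a median of 6.54, while shared regions extend to higher folds.

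The reads behind these values could be recovered from the deposited fold and p-value under a Poisson model, which was inferred from those values. A Dll1+ only region held a median of 31 reads at its summit (range 26 to 98), and 1221 of them (74.9%) stood on the genome-wide background of 3.74 reads. The corresponding background of the Dll1− list was 7.20 reads, 1.93 times higher. At an equal share of the library, the median Dll1+ only region would have had 59.7 reads in the Dll1− list and the one with fewest reads would have had 50.1. These reads underlie the fold that was selected on, and the lowest value is set by the threshold, so they are a description only. Rows of the Dll1− list that stood on its genome-wide background had been called with as few as 14 reads and a median of 37. The calling thresholds are not given, and the part of depth in the absence of a Dll1− row was not tested. Shared distal regions, with medians of 48 Dll1+ reads and 78 Dll1− reads, gave a smaller ratio than the background did.

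Most of the regions lay well away from Dll1− peaks. The nearest Dll1− row lay a median of 7609 bp away. It lay within 500 bp of 94 regions (5.77%), within 5000 bp of 577 (35.4%), and more than 50000 bp from 135 (8.28%). Relative to other regions they stood apart from the shared open chromatin: another shared region lay within 5 kb of 26.0% of them (23.9 to 28.2%), of 54.2% (53.2 to 55.1%) of the shared regions of similar fold, of 54.5% of the weaker Dll1+ only regions and of 32.7% of the stronger Dll1− only regions. They were also scattered among themselves. Another member of the set lay within 50000 bp of 217 of them (13.3%), and the median gap between members was 387508 bp.

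The strongest regions of the set lay in introns of, or between, genes of varied function. The region of the highest fold, 15.7 from 77 reads, was on chromosome 18 from 35183049 to 35183498, in an intron of Ctnna1, the alpha-catenin gene, with the nearest TSS that of Lrrtm2, a synaptic adhesion gene. Among the next 11, with folds from 13.7 down to 12.7, the Vps13b region (chromosome 15, 35636861 to 35637233, 64 reads) was in an intron of that lipid transfer protein gene, 265887 bp from its TSS. The region nearest Ehf, an ETS factor of epithelial cells, lay 100082 bp downstream of it on chromosome 2 (103183443 to 103183913, fold 13.5). The region nearest Cav1, the caveolin gene, was on chromosome 6 (17359290 to 17359537, fold 13.2) and carried a CTCF match. The region nearest Efnb2, which encodes an ephrin ligand, was 1600710 bp from that gene on chromosome 8 (7060159 to 7060905, fold 13.3), in a gene-poor interval with the nearest Dll1− row 347287 bp away. The region nearest Ednra, an endothelin receptor gene, was in an intron of the gene (chromosome 8, 77702285 to 77702643, fold 12.7), and the Sox4 region, of which the window is printed, tied with it at 59 reads. The others were nearest to Dcdc2c, Chek1, Slc14a2, Far2, Tcim and Rb1cc1, the last a gene of autophagy. Of the 12, a FOX match was present in those nearest to Lrrtm2, Chek1, Slc14a2, Efnb2 and Far2, and an AP-1 match in none. The tied Sox4 region had neither.

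The regions were assigned to 1353 nearest genes, of which 1146 had 1 region and 46 had 3 or more. The genes with 5 were Zbtb20, Foxp1, Epha7, Gpc6, Atxn7l3b and 5730522E02Rik. In Zbtb20, which encodes a zinc finger repressor, all 5 lay in introns between 32741 and 94746 bp from a TSS, with folds of 5.91 to 9.498, among 64 distal regions of which 44 were shared and 0 were of the stronger Dll1− only kind. At Foxp1, a forkhead repressor gene, 3 of 5 were intronic and their folds were 5.91 to 7.81, and 6 stronger Dll1− only regions had the same nearest gene. The 5 regions of Gpc6, a glypican gene, were all intronic, with folds of 6.03 to 7.60. The 5 of Epha7, an ephrin receptor gene, all lay 687810 bp or more from its TSS. Of the distal regions assigned to the gene, 4 of 41 at Epha7, 4 of 46 at 5730522E02Rik, 2 of 45 at Gpc6 and 0 of 14 at Atxn7l3b were stronger Dll1− only. Genes with 4 regions were led by Tmtc2, Lrrtm1, Mdga2 and the phospholipase gene Pla2g4a. The distal regions of all kinds assigned to the 6 genes with most members numbered from 14 at Atxn7l3b to 79 at Foxp1. Which gene a distal region acts on was not measured.

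Consensus matches were counted next in these windows. The AP-1 letters were present in 50 of 1630 Dll1+ only regions, 3.07% (2.33 to 4.02%). They were present in 14.9% (14.3 to 15.6%) of the shared regions of similar fold, in 43.5% (42.2 to 44.8%) of the stronger Dll1− only regions and in 19.4% of all distal regions. The share in windows 1000 bp to each side of the summits, a measure of what the surrounding DNA holds, was 3.56% for the Dll1+ only regions and 3.47% for the shared ones. The AP-1 share at Dll1+ only summits was thus no higher than in their own flanks, whereas it was 4.30 times the flanks at shared summits and 12.2 times at Dll1− only summits. In the weaker Dll1+ only regions the AP-1 share was 4.83% (4.39 to 5.30%). When rows on a local background over 2 times the genome-wide value were left out of both lists, the set changed to 2189 regions with an AP-1 share of 16.4% (14.9 to 18.01%). Of these, 814 held a Dll1− row as deposited, with AP-1 in 38.8% (35.5 to 42.2%), and the 1375 that held none had AP-1 in 3.13% (2.33 to 4.19%).

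The letters of other factors were more frequent in the Dll1+ only regions. FOX matches were present in 12.3% (10.8 to 14.0%), against 6.36% (5.91 to 6.85%) of shared regions of similar fold, 5.75% (5.18 to 6.37%) of the stronger Dll1− only regions and 6.32% of all distal regions. In the flanks the FOX share was 7.67% for Dll1+ only and 6.34% for shared regions, so that the summits held 1.61 times the flanks in the former and 1.00 times in the latter. NFI matches were present in 29.8% (27.6 to 32.0%), against 22.7% (22.0 to 23.6%) of the shared and 14.6% (13.7 to 15.5%) of the Dll1− only regions, with 10.9% in the flanks. The NFI share was in excess of the flanks in all of these sets, by 2.73 times in the Dll1+ only regions, 2.26 times in the shared and 1.51 times in the Dll1− only regions. The weaker Dll1+ only regions had an NFI share of 27.0% (26.07 to 27.9%), 2.60 times their flanks, and this interval overlapped that of the stronger ones.

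SOX, TEAD and RUNX matches differed less. The SOX share was 13.6% (12.04 to 15.4%) in Dll1+ only, 11.2% (10.6 to 11.8%) in shared and 8.83% (8.13 to 9.58%) in Dll1− only regions. The TEAD shares were 18.1% (16.3 to 20.0%), 15.7% (15.04 to 16.4%) and 14.9% (14.0 to 15.8%), and the RUNX shares, for the letters TGTGGTT, were 7.18% (6.02 to 8.53%), 5.59% (5.17 to 6.05%) and 4.60% (4.10 to 5.16%). For TEAD and RUNX the intervals of the Dll1+ only and the shared regions overlapped. At least 1 of the FOX, NFI, TEAD, RUNX and SOX consensus sequences was present in 60.2% (57.8 to 62.6%) of Dll1+ only regions, 49.01% (48.1 to 49.97%) of shared regions of similar fold and 40.6% (39.3 to 41.8%) of Dll1− only regions. These 5 are the sequences just given as more frequent in the set, so the joint share is no separate result.

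CTCF and TFAP2 matches were less frequent in the set. CTCF matches were present in 2.88% (2.18 to 3.81%) of the Dll1+ only regions, against 6.26% (5.81 to 6.74%) of the shared regions of similar fold. They were nearly absent from the flanks, at 0.153%. Matches for TFAP2, a luminal factor family with the GC-rich letters GCCNNNGGC, were present in 5.58% (4.57 to 6.81%), against 10.2% (9.59 to 10.7%). The flanks of the Dll1+ only regions were lower as well, at 2.85% against 4.09%, so that the summits held 1.96 and 2.48 times the flanks. TFAP2 was not compared within classes of GC content. NF-kB matches were present in 30 regions, 1.84% (1.29 to 2.62%), against 2.31% (2.04 to 2.62%) of the shared and 3.57% (3.13 to 4.08%) of the Dll1− only regions. RBPJ, the DNA-binding partner of the Notch receptors, had matches in 25 regions, 1.53% (1.04 to 2.25%), against 2.03% (1.78 to 2.32%) of the shared regions. For both of these the intervals of the Dll1+ only and the shared regions overlapped, so that no difference between these sets could be read from them. The NF-kB share also depended on the processing. It was 0.956% (0.464 to 1.96%) in regions with a −log10 p above its median. With rows on a raised local background left out of both lists it was 3.02% (2.38 to 3.82%).

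**Figure D2:**
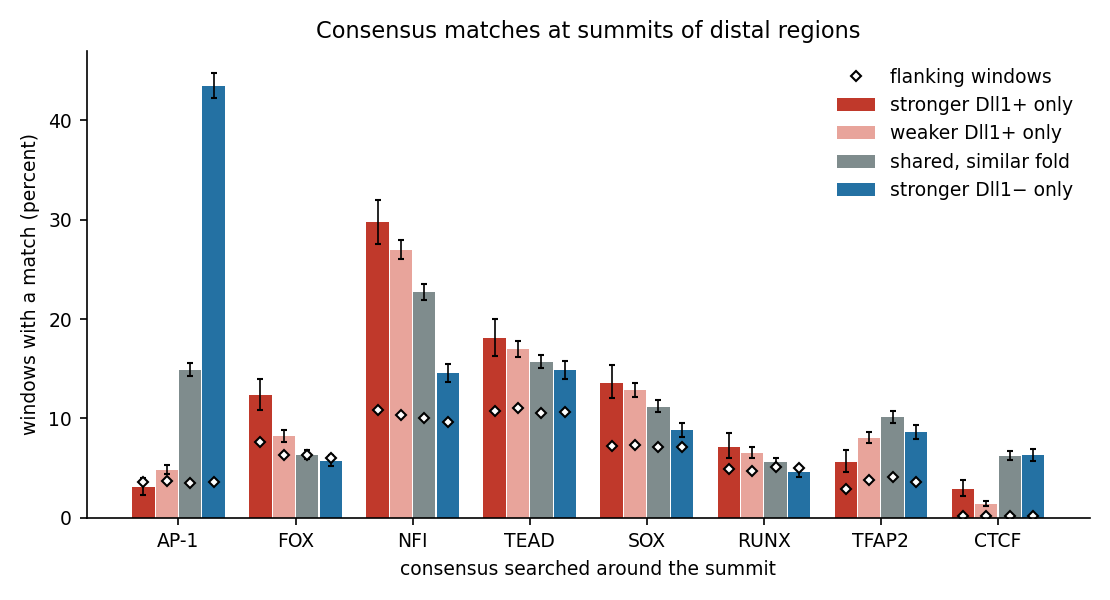
Percent of regions (y axis) with a consensus match in the window around the strongest summit, for 8 consensus sequences (x axis) in 4 sets of distal regions, with 95% Wilson intervals as error bars; diamonds give the share in windows 1000 bp to each side. AP-1 matches reach 43.5% of stronger Dll1− only regions and stay at 3.07%, the level of the flanks, in stronger Dll1+ only regions, which have the highest FOX (12.3%) and NFI (29.8%) shares.

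The matches were then placed by their distance from the summit. In the Dll1+ only regions NFI matches numbered 9.63 per 100 regions in the 40 bp after the summit and 2.33 per 100 in the bin 360 to 400 bp away, so that they peaked at the summit itself. In shared regions of similar fold the values were 6.29 and 2.22. FOX matches of the Dll1+ only regions formed a broad plateau, between 2.39 and 3.01 per 100 regions in each bin from 120 bp before to 120 bp after the summit. AP-1 matches had no peak in the Dll1+ only regions, with 0.982 per 100 in the bin after the summit and 0.491 in the outermost bin on that side. In the same bin after the summit there were 17.4 per 100 stronger Dll1− only regions.

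**Figure D3:**
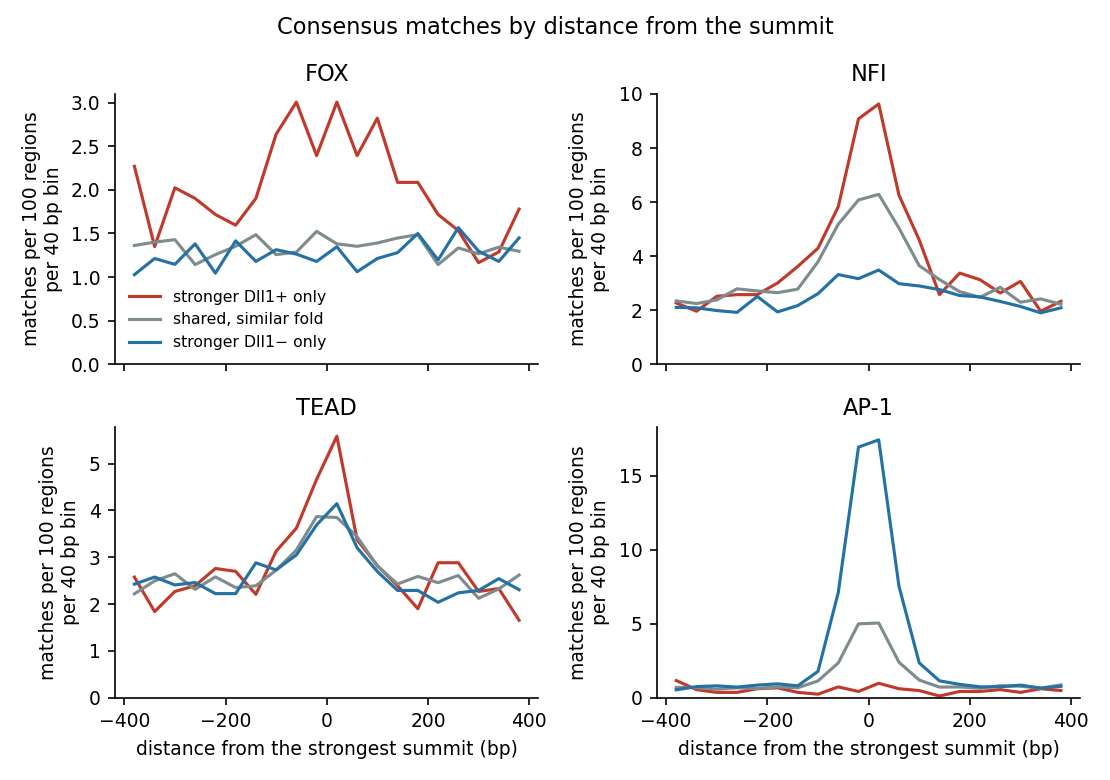
Consensus matches per 100 regions in 40 bp bins (y axis) by distance from the strongest summit (x axis, bp), for FOX, NFI, TEAD and AP-1 in 3 sets of distal regions; each panel has its own y scale. NFI matches peak at 9.63 per 100 at the summits of stronger Dll1+ only regions and AP-1 at 17.4 per 100 at those of stronger Dll1− only regions, while AP-1 is flat in the former.

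The FOX share is given next by the fold that the selection used, as a description. Divided by fold into 3 groups of 543 or 544 regions, the Dll1+ only regions had FOX matches in 9.58% (7.38 to 12.3%), 12.2% (9.67 to 15.2%) and 15.3% (12.5 to 18.5%) from the weakest to the strongest, beside 8.21% (7.65 to 8.81%) of the weaker Dll1+ only regions. The median GC content of the windows was 45.8% in the weakest and the middle group and 44.8% in the strongest. The NFI shares were 29.3%, 28.9% and 31.1%, and the AP-1 shares were 3.31%, 3.31% and 2.57%.

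The windows of the Dll1+ only regions were also poorer in G and C, with a median of 45.3% against 49.3% in shared regions of similar fold, and 22.2% (20.3 to 24.3%) of them held no CpG, against 11.3% (10.7 to 11.9%). Since the consensus letters differ in base composition, the shares were compared within GC classes. AP-1 matches were fewer in Dll1+ only than in shared regions of similar fold in each of 4 classes, at 4.39% against 16.1% in windows of up to 40% GC and at 1.86% against 13.8% in windows above 50% GC. FOX matches were more frequent in all 4 classes, at 16.3% against 12.3% in the lowest and 8.24% (5.87 to 11.5%) against 3.57% (3.07 to 4.13%) in the highest, and the intervals overlapped in the classes below 45% GC. NFI matches were more frequent in all 4, at 26.6% against 21.6% in the lowest class, where the intervals overlapped, and at 29.5% (25.1 to 34.3%) against 21.8% (20.7 to 23.0%) in the highest. For SOX, RUNX and NF-kB the order depended on the class. The SOX share was lower than that of shared regions in the lowest class, 11.9% against 13.2%, and so was the RUNX share, 4.39% against 5.91%. The NF-kB share was higher than that of shared regions in the lower classes, at 1.57% against 0.900% up to 40% GC and 1.95% against 1.19% from 40 to 45%, and lower in the others, at 1.48% against 2.23% from 45 to 50% and 2.39% against 3.06% above 50%. The intervals of all 3 overlapped in every class.

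The same motifs could be followed in the shared regions, which the selection left out because they held a Dll1− row. Their Dll1+ rows also entered the median that set the threshold. The read ratio given here comes from the same pooled lists as the selection, so it is a further description and no independent test. At the 64913 shared distal regions, the log2 ratio of Dll1+ to Dll1− reads, each relative to its list's genome-wide background and centred on the median of all shared distal regions, had a median of −0.34 in the 10870 regions with an AP-1 match and 0.06 in those without. It was 0.13 with and −0.01 without a FOX match, and 0.09 with and −0.03 without an NFI match. The ratio also moved with the GC content of the window, and the comparison was therefore repeated within 4 GC classes, in each of which the order of the medians was the same. In windows of up to 40% GC the median was −0.07 with and 0.24 without an AP-1 match, 0.25 and 0.17 for FOX and 0.26 and 0.17 for NFI. In windows above 50% GC it was −0.40 and −0.02 for AP-1, 0.06 and −0.08 for FOX and 0.01 and −0.10 for NFI. These are differences of level between pooled lists and have no replicate error.

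The position of the regions in the genome differed from that of other distal regions. By annotation, 864 (53.01%, 50.6 to 55.4%) were in introns and 693 (42.5%, 40.1 to 44.9%) between genes, close to the 52.7% and 41.3% of all distal regions. They lay farther from genes. The median distance to a protein-coding TSS was 50307 bp, against 29202 bp for shared regions of similar fold, and 33.3% (31.1 to 35.6%) were more than 100 kb away, against 18.8% (18.04 to 19.5%) of the shared regions and 20.5% (19.4 to 21.5%) of the stronger Dll1− only regions. They made up 0.363% (0.265 to 0.495%) of distal regions within 5 kb of a TSS, 1.63% (1.45 to 1.83%) of those at 50 to 100 kb and 5.39% (4.42 to 6.56%) of those beyond 500 kb.

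The wider base composition changed along with distance. With GC content taken over 5 kb to each side of the region, the Dll1+ only regions made up 5.77% (4.55 to 7.28%) of distal regions in DNA of up to 36% GC and 0.321% (0.239 to 0.432%) in DNA above 50% GC. The share of stronger Dll1− only regions was 4.08% and 4.69% in these classes and between 5.09% and 6.20% in the classes between them. Divided by this GC content, the share was higher beyond 100 kb than within 10 kb of a TSS in each of 4 classes. In DNA of up to 40% GC it was 2.61% (1.85 to 3.66%) within 10 kb and 4.61% (4.10 to 5.18%) beyond 100 kb, and in DNA above 44% GC it was 0.471% (0.378 to 0.587%) and 1.12% (0.894 to 1.397%). The intervals overlapped in the classes between them, with 1.78% (1.25 to 2.52%) and 2.99% (2.51 to 3.56%) from 40 to 42% GC and 1.21% (0.864 to 1.70%) and 1.90% (1.52 to 2.37%) from 42 to 44% GC. In the latter class the share at 10 to 100 kb, 1.95%, was as high as beyond 100 kb. The lowest and the highest class, where the intervals were apart, are open-ended. The share fell from 5.77% up to 36% GC to 3.41% at 38 to 40%. It also fell from 1.18% at 44 to 46% to 0.321% above 50%, so that GC content could still differ by distance within these classes. The shared regions moved in the same direction. Their centred log2 ratio of Dll1+ to Dll1− reads had a median of 0.31 in DNA of up to 36% GC and of −0.15 in DNA above 50% GC, and it ran from −0.06 within 5 kb of a TSS to 0.26 beyond 500 kb. The part of this shift between the libraries in the count of Dll1+ only regions was not tested.

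**Figure D4:**
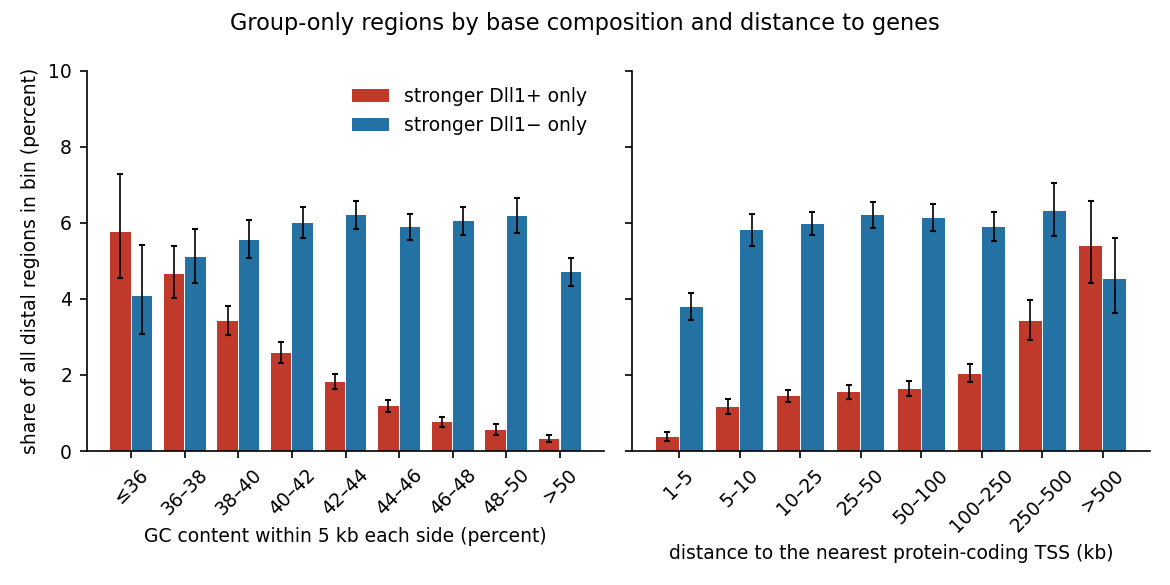
Percent of all distal regions in a bin (y axis) that were stronger Dll1+ only or stronger Dll1− only, by GC content within 5 kb to each side (left) and by distance to the nearest protein-coding TSS (right), with 95% Wilson intervals as error bars. The Dll1+ only share falls from 5.77% to 0.321% with GC content and rises from 0.363% to 5.39% with distance, and the Dll1− only share stays between 3.78% and 6.32%.

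Among the chromosomes, X had the highest share. On X, 78 of 2382 distal regions were of the Dll1+ only set, 3.27% (2.63 to 4.07%), against 1.55% (1.47 to 1.62%) on the autosomes. On chromosome 11 the share was 0.886% (0.685 to 1.15%), the lowest among the autosomes. The stronger Dll1− only share was 4.28% (3.54 to 5.17%) on X and 6.43% (5.86 to 7.06%) on chromosome 11. Within classes of GC content over 5 kb, the share on X was 6.03% (3.98 to 9.05%) against 4.82% (4.23 to 5.49%) on autosomes up to 38% GC, 4.63% against 3.34% from 38 to 40%, 3.39% against 2.54% from 40 to 42%, and 1.73% (1.10 to 2.72%) against 0.989% (0.921 to 1.06%) above 42%. It was higher on X in each class, and the intervals overlapped in all but the last. That class is open-ended, and over all chromosomes the share fell within it from 1.82% at 42 to 44% GC to 0.321% above 50%. X and the autosomes could therefore still differ in GC content there. The centred log2 ratio of shared regions was 0.11 on X and −0.15 on chromosome 11, and whether the lists differed in the copy number of a chromosome was not measured.

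**Figure D5:**
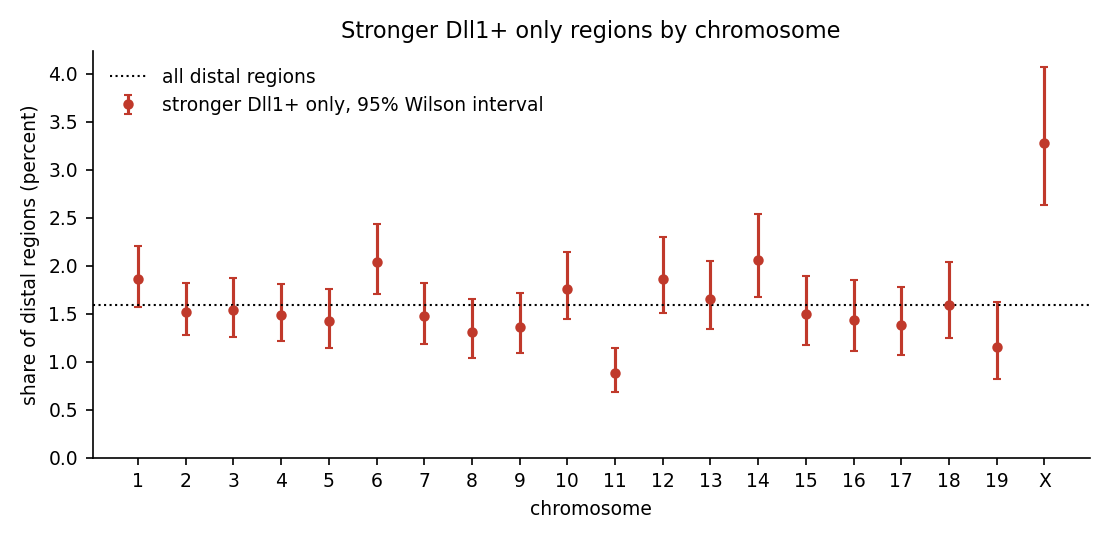
Percent of distal regions (y axis) that were stronger Dll1+ only, on each chromosome (x axis), with 95% Wilson intervals; the dotted line is the share over all distal regions, 1.59%. X (3.27%) lies above and chromosome 11 (0.886%) below the line, the intervals of chromosomes 6 (2.04%) and 14 (2.06%) also lie above it, and all others cross it.

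Genes with fixed roles were counted by how many distal regions had them as the nearest gene and how many of these belonged to the set. Genes of neuronal adhesion and guidance had 30 of 710 regions or 4.23% (2.98 to 5.97%) against 1.59% over all distal regions. The 30 belonged to 18 of the list's 46 genes. They included the synaptic organiser genes Lrrtm1 (4 regions, highest fold 10.6), Lrrtm2 (1, 15.7) and Mdga2 (4, 9.95) and the teneurin gene Tenm2 (1, 10.3). The distal regions of this list had a median GC content of 40.5% over 5 kb and a median distance of 180162 bp from a TSS, against 44.8% and 30847 bp over all distal regions. Over all distal regions beyond 100 kb from a TSS the share was 4.61% in DNA of up to 40% GC and 2.99% at 40 to 42% GC, both inside the list's interval. Its share of stronger Dll1− only regions was 6.06%, beside 5.77% over all.

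Of 478 distal regions of the NF-kB list, 6 belonged to the set, 1.26% (0.577 to 2.71%), an interval that includes the 1.59% over all distal regions, at folds from 5.60 to 6.75. They were single regions whose nearest genes were Tnfaip3, the NF-kB inhibitor gene with the highest fold of these, Map3k7, Il6, Ripk2, Map3k8 and Nfkb1. The distance to the TSS ran from 5016 bp for Il6 to 91069 bp for Ripk2 in 5 of them and was 1513591 bp for Map3k7. The Nfkb1 region lay in an intron on chromosome 3 from 135632947 to 135633235, 34708 bp from the TSS. Its fold was 5.60 from 26 reads, which was rank 1623 of 1630. Of the gene's 30 distal regions, 21 were shared, 3 were weaker Dll1+ only and 0 were stronger Dll1− only. Of 386 regions of the Notch list, 1 belonged to the set, a share of 0.259% (0.0457 to 1.45%), below the 1.59% over all distal regions. The list's regions had a median GC content of 46% over 5 kb, and the shares over all distal regions at 44 to 46% and at 46 to 48% GC, 1.18% and 0.756%, lie inside that interval. Dll1 itself had none among 19 distal regions, of which 15 were shared, 2 were weaker Dll1+ only and 0 were stronger Dll1− only. The study, which tested peak depth per sample, reported several peaks enriched in Dll1+ cells at Nfkb1 and at Dll1. A peak of higher depth in Dll1+ cells can still be shared in the lists used here. Among the other genes that the study labelled, Hepacam2 had 1 of 5 distal regions in the set (fold 9.71, in an intron). Ntrk3 had 1 of 30 (6.54, 775688 bp away), Npy had 1 of 15 (6.33, 195131 bp away) and Bglap2 had 0 of 1. Stronger Dll1− only regions numbered 1 at Hepacam2, 1 at Ntrk3, 2 at Npy and 0 at Bglap2.

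All lists other than the neuronal adhesion and the Notch list had shares whose Wilson intervals included 1.59%. The FOX factor genes had 9 of 402 regions, 2.24% (1.18 to 4.20%), 5 of them at Foxp1. The TGF-beta and BMP list had 9 of 754, 1.19% (0.629 to 2.25%), led by those assigned to Dab2, an endocytic adaptor gene (fold 8.65, 3577 bp from the TSS), Inhba, the activin subunit gene (8.44, 639073 bp away), Acvr2a, an activin receptor gene (7.81, in an intron), and Fst, an activin antagonist gene (2 regions, 7.39 and 5.91, 25890 and 66671 bp away). The Wnt list had 8 of 587, 1.36% (0.692 to 2.67%), led by the receptor gene Fzd6 (10.8, in an intron of the gene) and the ligand gene Wnt5a (10.3). The luminal list had 5 of 463, 1.08% (0.462 to 2.50%), of which 2 were assigned to Kit, the receptor of luminal progenitors, with folds of 9.08 and 5.85, and 1 to Ehf. The basal list had 2 of 296, both assigned to Nrg1, which encodes an ErbB3 and ErbB4 ligand, and the ErbB list had 4 of 207, with 1 region assigned to Erbb3 and 1 in an intron of Erbb4. The AP-1 subunit genes had 1 of 134, nearest to Jun (6.97). There were 5 of 319 for the hypoxia list, 4 of 363 for Hippo and TEAD, 4 of 336 for the SOX factors, with the highest fold in that nearest to Sox4 (12.7), and 3 of 145 for RUNX. Genes that mark fibroblasts had 0 of 191 regions (interval up to 1.97%; a count of 0, taken as under 3, allows up to 1.57%), endothelial markers 0 of 125 (2.98% and 2.40%), immune markers 0 of 53 (6.76% and 5.66%) and adipocyte markers 1 of 38, nearest to Retn. The share of stronger Dll1− only regions was 14.7% for the fibroblast list and 10.4% for the endothelial list, beside 5.77% over all, and the part of other cell types in the Dll1− list was not tested.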

How the data were processed

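ATAC-seq peaks of sorted tumour cells were analysed as 2 pooled lists. The authors put all replicates of a group through the ENCODE pipeline for ATAC-seq and deposited the optimal peak file. The aligner, the peak caller and the thresholds are not given in the sources used here. The labels name mm10 and GRCm38 as builds. In the deposited rows the fold is the ratio of reads at the summit to the local background, the −log10 p-value is the authors' own, and the deposited score is a capped multiple of it and was used for nothing further. The −log10 q-value as deposited was not used. The later per-sample read counts were not analysed here.

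Rows of both lists that overlapped or touched were merged. Reads per row were recovered with a Poisson model (fold as reads plus 1 divided by background plus 1). All Dll1+ rows and all but 1 of 148923 Dll1− rows could be solved to within 0.01 on the −log10 scale. TSS and classes came from the basic GENCODE M21 annotation, sequence from GRCm38.p6 in RefSeq, and 24 consensus sequences were searched on both strands. The NF-kB, CTCF, p63, MEF2 and HNF1 consensus sequences hold degenerate letters. Matches of different consensus sequences could overlap. Windows were centred on the strongest Dll1+ summit, or on the strongest Dll1− summit where there was no Dll1+ row. Coordinates are 1-based.

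No test was made, since pooled lists have no replicates, and PCR copies could not be told from separate molecules. The members, gene lists and consensus sequences were chosen with earlier results of these data known. The genes named were those nearest to the 12 strongest members, the 10 genes nearest to most members, up to 4 genes per list by fold, and 6 genes that the study labels. Other members of a list were named where its count was small, after their values were seen. Steps ran in Python 3.11.15 with numpy 2.4.6, pandas 2.3.3, scipy 1.17.1 and matplotlib 3.10.9, and were tested on simulated data. Values of some members of the gene lists are not reported here.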

Additional observations from a re-analysis of the deposited data

How the results depend on the processing

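The 1630 regions and 9 derived values were recomputed under 10 alternatives. Of 96 values, 54 stayed within their interval or within 1.5 times the count. Merging rows up to 500 bp apart, a distance of 2500 bp and start sites of every biotype moved none of the values given here. The number was 110 with a fold above the upper quartile, 732 with a −log10 p above its median and 10227 without a threshold. In this order the AP-1 share was 4.55%, 2.19% and 4.55%, and the NF-kB share was 0.909%, 0.956% and 1.98%. The FOX share was 18.2% at the upper quartile and 8.87% without a threshold, and the NFI share was 35.5% and 27.4%. Rows on a raised background, over 2 times the genome-wide value, were left out of both lists in another alternative. It gave 2189 regions, since a region whose Dll1− rows had all been left out then counted as Dll1+ only, with AP-1 in 16.4%, FOX in 9.37% and NFI in 25.7%. When such rows were left out of the Dll1+ list only, 1375 regions were left, with 3.13%, 12.7% and 29.9%. Windows of 50 bp each side gave 1.60%, 5.95% and 19.5% for AP-1, FOX and NFI, and whole regions gave 5.64%, 20.9% and 41.2%. The cause of the other shifts was not tested, apart from the longer or shorter sequence searched. The NFI share, the flanking windows, the GC classes and the alternative on the Dll1+ list only were added after seeing the data. No paired analysis was possible because each list pools its samples, and for the same reason leaving out each replicate could not be run. The depth of single samples is unknown, and a region absent from the Dll1− list was not called there rather than shown to be closed.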

Other observations

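A survey of all 2080 distinct words of 6 bases, counting a word and its reverse complement as 1, was made after the consensus shares had been seen and is given as a description. Of the 10 words with the largest deficit in the stronger Dll1+ only regions against all distal regions, 5 share letters with the AP-1 consensus. The word GACTCA was present in 8.96% of their windows, 21.4% of the windows of shared regions of similar fold and 47.9% of those of stronger Dll1− only regions, and GAGTCA in 10.5%, 22.6% and 50.04%. The other 5 were rich in C, such as CCCCAG with 12.6% against 19.3% of the shared regions. The words of largest excess were rich in A, and some hold letters of the forkhead consensus. The word TAAACA was present in 23.7%, 14.3% and 11.8% of the 3 sets and AAACAA in 32.3%, 22.3% and 17.8%. The only word among the 15 of largest excess with 3 or more bases of G or C was TGCCAA, the NFI site, in 29.8%, 22.7% and 14.6%.

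FOX and NFI letters were present together in 53 of the 1630 regions, 3.25% (2.49 to 4.23%), against 1.53% (1.32 to 1.79%) of the shared regions of similar fold and 1.01% (0.786 to 1.30%) of the stronger Dll1− only regions. The product of the single shares is 3.67%, 1.45% and 0.836% in these sets, inside the interval of the joint share in each. CTCF matches were rarer still in the weaker Dll1+ only regions than in the stronger ones, at 1.38% (1.16 to 1.65%) against 2.88% (2.18 to 3.81%). MEF2 matches were present in 2.58% (1.91 to 3.46%) of the stronger Dll1+ only windows and in 2.82% of their flanks, against 1.48% (1.26 to 1.73%) of the windows of shared regions. The grainyhead-like consensus AACNNGTT, of factors that keep epithelial enhancers open, was present in 6.07% (5.01 to 7.34%) of the stronger Dll1+ only and 5.68% (5.25 to 6.14%) of the shared regions, and in 3.67% (3.22 to 4.18%) of the stronger Dll1− only regions. C/EBP matches were present in 14.4% (12.8 to 16.2%), 12.8% (12.2 to 13.5%) and 10.9% (10.2 to 11.8%) of the same sets.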
